A study of Mus musculus with 6 samples.

Results

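Regions that carried a peak of methylated DNA in erythroblasts (ERY) and none in common myeloid progenitors (CMP) or hematopoietic stem cells (HSC) numbered 1000 on mouse chromosomes 1 to 19. They were found by merging the peaks of the ERY, CMP and HSC lists wherever peaks overlapped or touched. Members were chosen by the called peaks alone, as merged regions with an ERY peak and no peak of the other lists. The 1000 ERY-only regions made up 3.74% of the 26718 regions with an ERY peak and 1.18% of all 85078 merged regions. Each held exactly 1 ERY peak.

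Methylation of cytosine in CpG dinucleotides is written by DNA methyltransferases and lost when cells divide without copying it, or when it is actively oxidised. Erythroblasts, the nucleated precursors of red cells, are known in the mouse for a broad loss of DNA methylation as they mature. Proteins with a methyl-CpG-binding domain, such as MBD2, bind methylated CpG sites and can be used to pull methylated fragments out of sheared DNA.

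The labels give C57BL/6 background and female sex for the ERY, CMP and HSC samples alike, with no genetic alteration or drug in any group. Adult bone marrow was the source of CMP and HSC, and the labels do not describe the isolation of ERY. CMP were sorted as lineage-negative, Sca-1-negative, c-kit-positive cells, and HSC as lineage-negative cells with both Sca-1 and c-kit. As background, the CMP gate can also hold granulocyte-macrophage and megakaryocyte-erythrocyte progenitors, and the HSC gate also takes in multipotent progenitors. Each cell type was represented by 1 MBD2-enriched library, and the 3 supernatant libraries were not analysed here. A peak list carries no RNA, so the cell labels could not be checked against marker genes.

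The lists held 27839 peaks in ERY, 50638 in CMP and 85797 in HSC, on all chromosomes. They give positions and no height, score or read count, so the depth of the libraries is unknown. An ERY-only region is thus one where peaks were not called in CMP and HSC, not one shown to lack methylation there. With 1 library per cell type differences have no replicate error and no test was made. The membership and every value below come from the same 3 lists that chose the regions, so the values are descriptions. Shares carry 95% exact binomial (Clopper-Pearson) intervals, which treat regions as independent and cover counting error only. Coordinates are 1-based on mm9, and genes are not assigned here because the gene table at hand belongs to GRCm38.

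Few ERY peaks lay within 100 bp of the boundary between ERY-only and shared regions. Of the 26266 ERY peaks that lay in shared regions, 26228 (99.9%) had at least 50% of their bases inside HSC or CMP peaks. The shared ERY peaks nearest to the boundary were chr11:35855757-35856453 with 12 shared bases, chr7:25426356-25427170 with 34 and chr2:6283799-6284633 with 49. Next came chr5:123601291-123601894 with 56 shared bases and chr2:71096752-71097582 with 91. On the other side, 9 of the 1000 ERY-only regions lay within 100 bp of an HSC or CMP peak. Within 500 bp lay 61, and within 1 kb 128. The closest was chr6:5374081-5374825, 2 bp from an HSC peak. Chr5:91167055-91167601 was 6 bp away, chr17:83740261-83740947 was 7 bp, chr3:151140597-151141264 was 9 bp and chr1:90691977-90692539 was 11 bp, in each case from an HSC peak. A handful of regions would change side with a shift of a few bases, and nearly all would not.

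ERY-only regions were narrow for erythroblast peaks. Their median width was 683.5 bp (interval 674 to 700, interquartile range 567.75 to 799, full range 299 to 2010). ERY peaks in regions shared with both CMP and HSC had a median of 798 bp (796 to 801). Those shared with CMP alone had 666 bp (637 to 701), and those shared with HSC alone 714 bp (700 to 723). Peaks found in ERY and in 1 other list were thus close in width to the ERY-only peaks, and the peaks found in all 3 lists were wider. Single-list peaks were narrow in the other lists as well. The median was 641 bp (632 to 651) for CMP-only peaks, against 819 bp for all CMP peaks. For HSC-only peaks it was 677 bp (675 to 680), against 748 bp for all HSC peaks. Widths of 1000 bp or more were seen in 40 of 1000 ERY-only regions (4.0%, interval 2.87 to 5.41%). For ERY peaks shared with CMP alone the share was 3.65% (1.76 to 6.61%), and for those shared with HSC alone 5.13% (3.88 to 6.64%). In regions present in all 3 lists it was 3821 of 24940 ERY peaks (15.3%, 14.9 to 15.8%).

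Across the width deciles of the ERY list, the share of peaks that were ERY-only was lower in each wider decile. It was 8.29% (interval 7.29 to 9.39%) of the narrowest decile, from 218 to 552 bp, and 0.844% (0.536 to 1.26%) of the widest, from 1105 bp up. For comparison, the CMP peaks without an ERY or HSC counterpart, 1440 regions called CMP-only (2.99% of CMP regions), showed a steeper course within their own list. They made up 8.98% (8.20 to 9.82%) of the narrowest CMP decile and 0.143% (0.0576 to 0.295%) of the widest. Wide single-list peaks were therefore commoner among ERY peaks, with 23 of 2724 in the top decile, than among CMP peaks, with 7 of 4889. A CMP-only peak lacks a counterpart in the long HSC list and in the short ERY list, and an ERY-only peak lacks one in both longer lists. The difference between the lists in their top deciles was not tested. A wider peak placed at random is more likely to meet a peak of another list. How far the lower shares in wider deciles follow from how the regions were chosen was not tested.

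**Figure D1:**
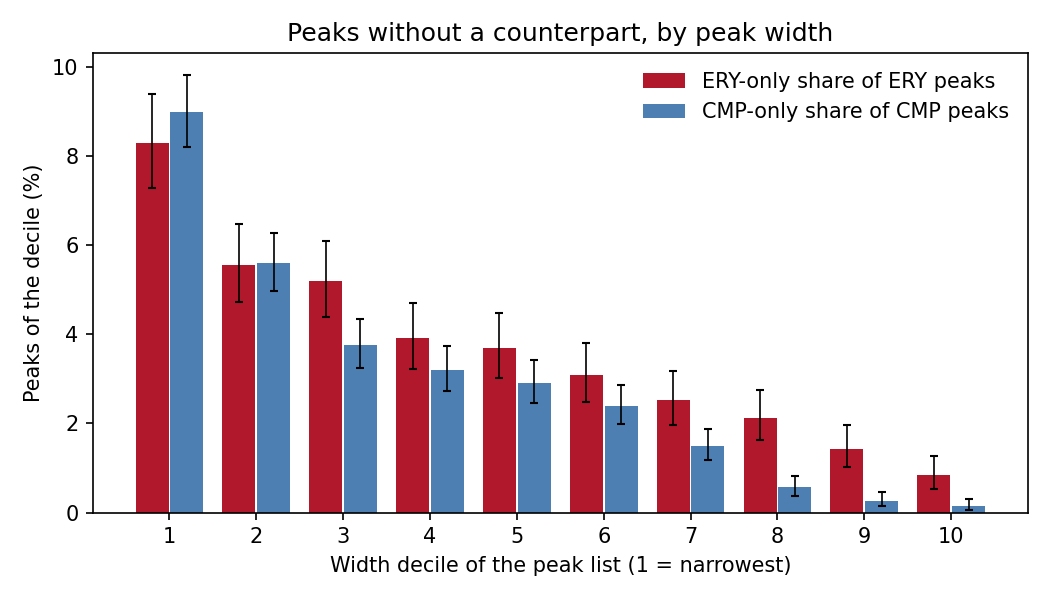
Share of peaks (y axis, percent) found in 1 list alone, by width decile of that list (x axis), for ERY-only peaks in red and CMP-only peaks in blue, with 95% exact binomial intervals as bars. Both shares are lower in wider deciles, and the widest decile holds 0.844% ERY-only and 0.143% CMP-only peaks.

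The widest ERY-only region was chr12:19722697-19724706, at 2010 bp. It lay 32938 bp from the nearest HSC peak and 32897 bp from the nearest CMP peak, and 6928 bp from another ERY-only region. The second, chr1:172872011-172873639 (1629 bp), had an HSC peak 521 bp away and a CMP peak 339 bp away, while the nearest other ERY region with a counterpart was 90459 bp off. The third, chr6:115741818-115743404 (1587 bp), lay 63 bp from an HSC peak. Chr12:89330248-89331698 (1451 bp) lay 42378 bp from an HSC peak and 102274 bp from a CMP peak.

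The other 6 of the 10 widest measured between 1321 and 1416 bp. They were chr2:130985235-130986650, chr10:80254162-80255546, chr12:3234993-3236334, chr18:80488839-80490173, chr14:90297967-90299288 and chr7:53313597-53314917. Chromosome 12 held 3 of the 10 widest regions. The setting of these wide regions varied, since chr7:53313597-53314917 had 27 HSC regions within 100 kb of its midpoint and chr14:90297967-90299288 had none.

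Within 10 kb of an HSC or CMP peak lay 572 of the 1000 ERY-only regions (57.2%, interval 54.1 to 60.3%). The median gap to the nearest HSC or CMP peak was 7421 bp (interquartile range 2469.8 to 20711), and 397 of 1000 regions (39.7%, interval 36.7 to 42.8%) were within 5 kb of one. The median gap was 7780.5 bp to an HSC peak and 14031 bp to a CMP peak, the HSC list being the longer. The nearest ERY region with a counterpart was farther, at a median of 23803 bp, such regions being fewer than HSC or CMP regions. The median width was 719 bp (691 to 758) in the 128 regions within 1 kb of an HSC or CMP peak and 676.5 bp (651 to 699) in the 394 regions at 10 to 100 kb.

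ERY-only regions had a longer median gap to the nearest HSC region than the other classes. The nearest HSC region was a median of 7758 bp from ERY-only regions, 6472.5 bp from regions in CMP and ERY and 6375 bp from CMP-only regions, and HSC regions present in all 3 lists had another HSC region at a median of 3871 bp. Within 5 kb of an HSC region were 38.9% of ERY-only regions (35.9 to 42.0%), 44.0% of CMP-only regions (41.4 to 46.6%) and 55.7% of regions present in all 3 lists (55.1 to 56.3%). For regions in CMP and ERY the share was 45.3% (39.3 to 51.4%). The ERY-only interval overlapped those of the other classes without an HSC peak, CMP-only and CMP and ERY. The differences in median gap carry no interval and were not tested. Within 50 kb the order was not the same, with 89.5% of ERY-only regions (87.4 to 91.3%) and 83.6% of regions in CMP and ERY (78.6 to 87.8%). The nearest HSC region of an ERY-only region had about the class make-up of HSC regions at large. It was kept in both CMP and ERY in 31.3% of cases (28.4 to 34.3%), against 29.6% of all HSC regions, and found in HSC alone in 41.6% (38.5 to 44.7%), against 42.3%. HSC regions kept in ERY and not in CMP were the nearest neighbour in 26 of 1000 cases (interval 1.71 to 3.79%), against 1.27% of all HSC regions.

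At the far end, 34 ERY-only regions had no HSC or CMP peak within 100 kb, 7 of them on chromosome 3 and 5 on chromosome 14. The most isolated was chr5:51397724-51398275 (552 bp), with 455249 bp to the nearest CMP peak and 455400 bp to the nearest HSC peak. It was followed by chr9:17306687-17307277 (gap 383045 bp), chr4:112029242-112030047 (367590 bp), chr14:89400040-89400713 (303684 bp) and chr1:148652870-148653409 (281176 bp). None of these 5 had any HSC, CMP or other ERY region within 100 kb of its midpoint. The 34 isolated regions had a median width of 615 bp (559 to 733), with a full range of 299 to 1322 bp.

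ERY-only regions took a larger share of the regions with an ERY peak where stem cell peaks were sparse. For each region the HSC regions within 100 kb of its midpoint were counted, leaving out the region itself. The median was 9 around ERY-only regions (interquartile range 4 to 15), 9 (4 to 15.25) around CMP-only regions, 8 (2 to 14) around regions in CMP and ERY and 12 (6 to 19) around regions present in all 3 lists. Low counts were thus common to the 3 classes without an HSC peak. Of ERY regions with no HSC region that near, 36 of 406 were ERY-only (8.87%, interval 6.29 to 12.1%). The share was lower in each denser bin, and in the densest, with 21 to 55 HSC regions, it was 119 of 5511 (2.16%, 1.79 to 2.58%).

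The order was the same among wide and narrow ERY peaks. Among regions whose widest ERY peak was at or above the list's median, the share was 9.0% (4.198 to 16.4%) with no HSC neighbour and 1.04% (0.723 to 1.44%) in the densest bin. Among narrower ones it was 8.82% (5.90 to 12.6%) and 3.93% (3.15 to 4.85%). The span was smaller for CMP-only regions, at 5.41% (4.001 to 7.13%) of CMP regions without an HSC neighbour and 2.10% (1.81 to 2.41%) in the densest bin. An ERY peak placed at random is more likely to meet an HSC peak where those are dense. How far the lower shares in denser bins follow from how the regions were chosen was not tested.

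**Figure D2:**
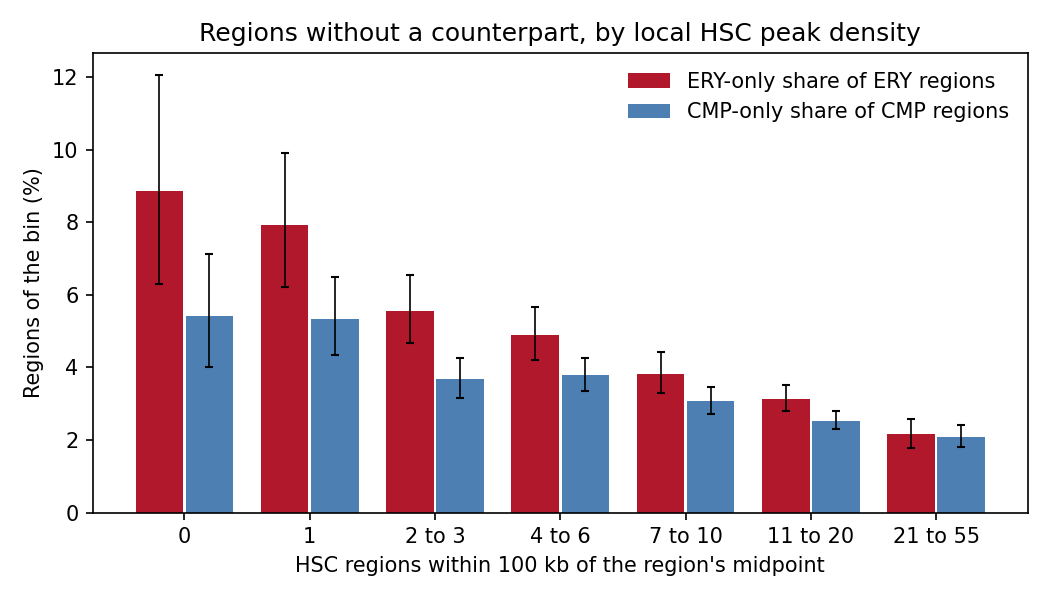
Share of regions (y axis, percent) that were ERY-only among ERY regions in red, and CMP-only among CMP regions in blue, by the number of HSC regions within 100 kb (x axis), with 95% exact binomial intervals. The ERY-only share is 8.87% with no HSC neighbour and 2.16% in the densest bin.

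The HSC regions that did lie near ERY-only regions were kept in erythroblasts about as often as elsewhere. Of the HSC regions counted within 100 kb of ERY-only regions, 33.7% held an ERY peak. Around CMP-only regions the figure was 32.0%, and around regions present in all 3 lists 34.6%. No interval is given for these values, because neighbouring windows count the same regions.

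ERY-only regions lay near one another in a larger share of cases than regions in all 3 lists lay near them. Another ERY-only region was found within 100 kb of 211 of the 1000 (21.1%, interval 18.6 to 23.8%). The same distance to an ERY-only region was met by 15.3% (11.3 to 20.1%) of regions in CMP and ERY, by 15.2% (13.1 to 17.5%) of those in HSC and ERY, and by 11.8% (11.4 to 12.2%) of those in all 3 lists. For CMP-only regions it was 10.6% (9.02 to 12.3%), and for HSC-only regions 10.7% (10.39 to 11.05%). Within 20 kb the values were 7.10% (5.59 to 8.87%) for ERY-only regions, 6.20% (3.66 to 9.75%) for regions in CMP and ERY, 5.63% (4.31 to 7.20%) for those in HSC and ERY and 2.82% (2.62 to 3.04%) for regions in all 3 lists. The classes with an ERY peak and an incomplete set of counterparts thus ranked next after the ERY-only regions themselves. These differences between classes were not tested.

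The values were also taken at low and high local density. With up to 10 HSC regions within 100 kb, an ERY-only region lay within 100 kb of 19.5% (16.4 to 22.9%) of ERY-only regions, 15.5% (10.4 to 21.8%) of regions in CMP and ERY, 11.2% (8.57 to 14.3%) of those in HSC and ERY and 7.74% (7.23 to 8.26%) of those in all 3 lists. With over 10 the share was 23.4% (19.4 to 27.7%) of ERY-only regions, 15.1% (8.88 to 23.4%) of regions in CMP and ERY, 18.8% (15.6 to 22.3%) of those in HSC and ERY and 14.9% (14.3 to 15.5%) of those in all 3 lists. The interval of the ERY-only regions overlapped that of CMP and ERY at both densities, and that of HSC and ERY at the higher one. Closeness within a class was not particular to ERY-only regions, since 12.0% (8.44 to 16.5%) of regions in CMP and ERY had another of their class within 100 kb, against 4.90% (3.65 to 6.43%) of ERY-only regions and 3.19% (2.98 to 3.42%) of regions in all 3 lists. Of CMP-only regions, 15.6% (13.7 to 17.5%) had another CMP-only region within 100 kb, against 17.7% (17.2 to 18.2%) of regions in all 3 lists and 16.5% (16.1 to 16.9%) of HSC-only regions. Of ERY-only regions, 16.3% (14.1 to 18.7%) had a CMP-only region that near. Very close neighbours were few, with 8 of the 1000 within 500 bp of another.

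**Figure D3:**
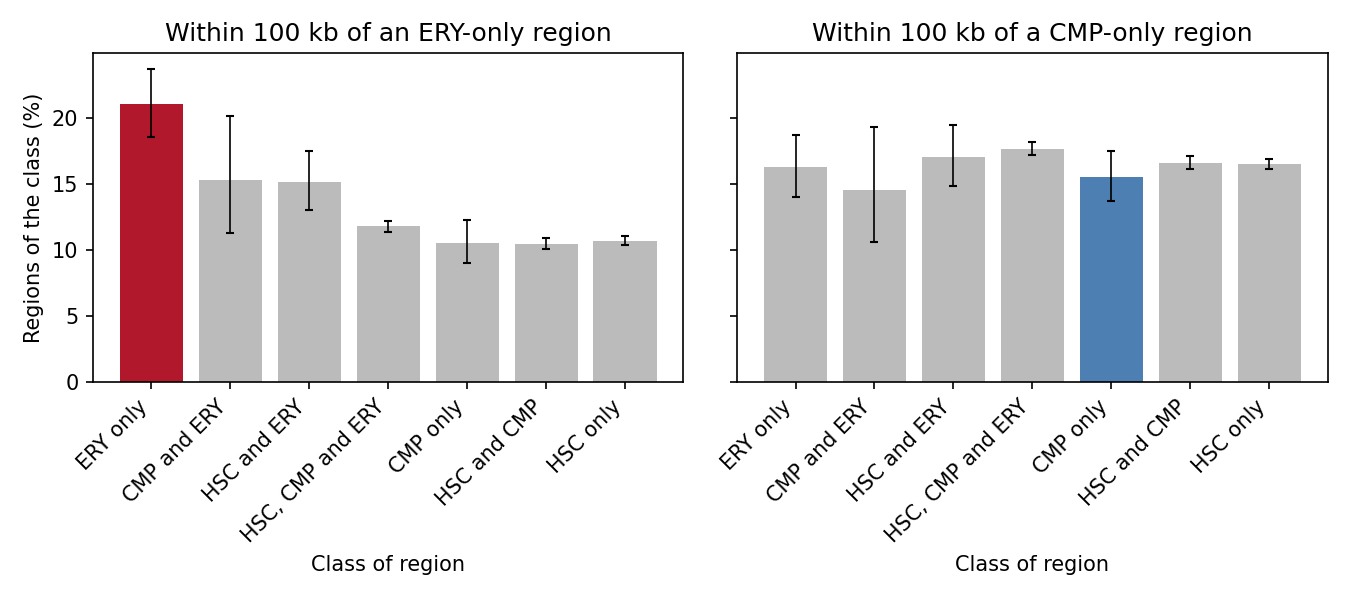
Share of the regions of each class (y axis, percent) that had an ERY-only region (left) or a CMP-only region (right) within 100 kb, the region itself left out, with 95% exact binomial intervals. The ERY-only class stands highest on the left at 21.1%, while on the right the CMP-only class, at 15.6%, is not above the others.

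Runs of ERY-only regions, with neighbours no more than 100 kb apart, took in 211 regions in 95 runs. Most were pairs, 15 runs had 3 members and 3 runs had 4. The other 789 regions stood alone. The run on chromosome 8, chr8:87650558-87763703, spanned 113 kb and contained 5 ERY regions, 1 HSC region and no CMP region. Its 4 ERY-only members were 532, 432, 881 and 557 bp wide. The sole ERY peak with a counterpart in this stretch overlapped an HSC peak.

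The run on chromosome 1, chr1:172044098-172192840, held 4 ERY-only regions of 631, 503, 547 and 650 bp among 6 ERY regions, 4 CMP regions and 5 HSC regions. The run on chromosome 6, chr6:136523172-136677220, was set in a denser stretch, with 11 ERY, 9 CMP and 15 HSC regions. Its 4 members measured 562, 607, 688 and 604 bp, and 2 further ERY regions there overlapped an HSC peak but no CMP peak. Within their own spans, the 3 runs with most members thus ranged from 1 HSC and no CMP region to 15 HSC and 9 CMP regions. Beyond its span the chromosome 8 run did have such peaks nearby. Its first member had 13 HSC and 7 CMP regions within 100 kb of its midpoint, and its last had 2 HSC and no CMP regions.

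**Figure D4:**
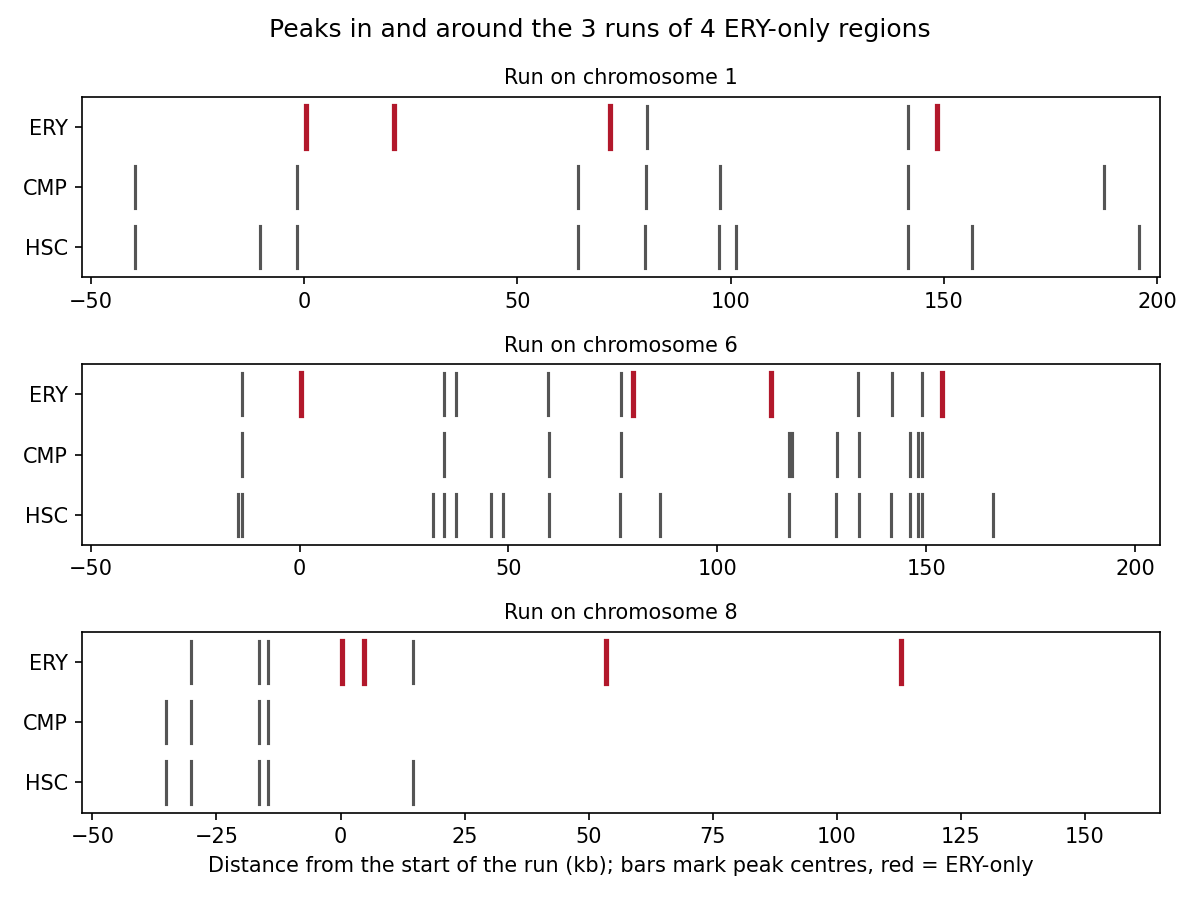
Peaks of the ERY, CMP and HSC lists (rows) in and around the 3 runs of 4 ERY-only regions, as bars at the peak centres against distance from the start of the run (x axis, kb), with ERY-only peaks in red. The chromosome 8 run holds 4 ERY-only peaks with no CMP peak between them, and the chromosome 6 run lies among 9 CMP and 15 HSC regions.

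Some shorter runs were tighter. Chr12:19709565-19724706 packed 3 ERY-only regions of 1275, 540 and 2010 bp into 15.1 kb, the last being the widest of all. Chr12:89330248-89336195 held 3 of 1451, 615 and 763 bp within 5.95 kb, at least 42378 bp from any HSC peak. Chr5:105350371-105356237 held 3 of 677, 617 and 845 bp within 5.87 kb, of which the first and second were 24 bp apart.

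In windows of 1 Mb, 692 windows held at least 1 ERY-only region and 27 held 4 or more. The highest counts were 6, on chromosome 1 from 172 to 173 Mb, where there were 15 ERY regions, 19 CMP regions and 28 HSC regions, and on chromosome 8 from 87 to 88 Mb, where there were 27 ERY regions, 48 CMP regions and 70 HSC regions. Besides the 4-member run, the chromosome 1 window held the neighbours chr1:172869052-172869947 (896 bp) and chr1:172872011-172873639, 2063 bp apart. Windows on chromosome 14 (54 to 55 Mb) and chromosome 4 (138 to 139 Mb) held 5 each, among 14 and 28 ERY regions.

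Every autosome carried ERY-only regions, from 20 on chromosome 16 to 83 on chromosome 5. Relative to the ERY regions present, they were commonest on chromosome 14, with 57 of 953 (59.8 per 1000, interval 45.6 to 76.8), and on chromosome 3, with 75 of 1354 (55.4 per 1000, 43.8 to 68.9). They were rarest on chromosome 15, with 26 of 1304 (19.9 per 1000, 13.1 to 29.1), and chromosome 10, with 37 of 1685 (22.0 per 1000, 15.5 to 30.1). The intervals of the first pair and the second pair of chromosomes do not overlap. Both pairs were picked as the extremes of this same value, so the gap between their intervals is not a test. Over the 19 autosomes, CMP-only regions ranged from 23.9 per 1000 CMP regions on chromosome 8 to 37.7 on chromosome 1.

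Chromosome 14 also had the fewest HSC regions per Mb, 24.4, and chromosome 3 had 27.0, against 37.8 on chromosome 15 and 38.4 on chromosome 10. Over the 19 autosomes, the ERY-only share and the HSC density had a Spearman rho of -0.54, given as a description because both are counted from the same lists. Chromosome 16 had 28.7 HSC regions per Mb and 22.6 ERY-only regions per 1000 (13.9 to 34.7). Among ERY regions with up to 10 HSC regions within 100 kb, the values were 73.2 per 1000 (53.2 to 97.6) on chromosome 14 and 74.2 (56.5 to 95.2) on chromosome 3, against 20.8 (9.04 to 40.6) on chromosome 15, 26.5 (13.8 to 45.8) on chromosome 16 and 35.3 (21.4 to 54.6) on chromosome 10. The intervals of chromosomes 14 and 10 overlapped there. In denser surroundings they were 39.6 (22.3 to 64.4) on chromosome 14, 31.7 (19.2 to 49.1) on chromosome 3, 19.6 (11.6 to 30.7) on chromosome 15, 18.5 (8.03 to 36.2) on chromosome 16 and 15.7 (9.33 to 24.7) on chromosome 10, with overlapping intervals. The order of chromosomes differed between the densities. Chromosome 8 was highest in sparse surroundings, at 86.0 (63.5 to 113), and had 16.1 (9.57 to 25.3) in denser ones. In denser surroundings chromosome 6 was highest, at 45.2 (28.9 to 67.0), with 40.5 (27.7 to 57.0) in sparse ones.

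**Figure D5:**
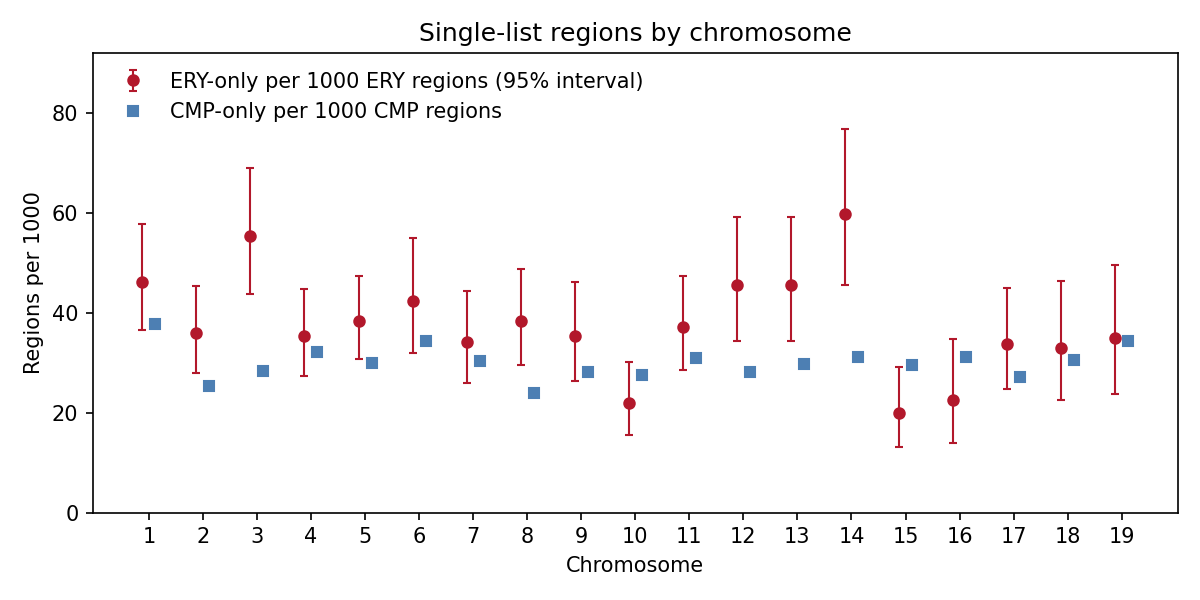
ERY-only regions per 1000 ERY regions (red circles, with 95% exact binomial intervals) and CMP-only regions per 1000 CMP regions (blue squares) on each autosome (x axis). The ERY-only values run from 19.9 on chromosome 15 to 59.8 on chromosome 14, and the CMP-only values from 23.9 to 37.7.

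A smaller share of ERY-only regions than of regions in all 3 lists lay at the distal chromosome ends, and likewise at the proximal ends. In the 10 Mb before the last peak of each autosome lay 95 of 1000 ERY-only regions (9.50%, interval 7.75 to 11.5%), 8.39% (5.40 to 12.3%) of regions in CMP and ERY, 13.4% (11.4 to 15.6%) of those in HSC and ERY, 12.2% (10.5 to 14.0%) of CMP-only regions and 14.4% (13.9 to 14.8%) of regions in all 3 lists. Put the other way, ERY-only regions were 2.52% (2.05 to 3.08%) of ERY regions in the distal 10 Mb and 3.94% (3.694 to 4.202%) of those elsewhere. With over 10 HSC regions within 100 kb they were 2.26% (1.76 to 2.85%) in the distal 10 Mb and 2.90% (2.61 to 3.22%) elsewhere, and with up to 10 they were 3.59% (2.38 to 5.18%) and 5.07% (4.67 to 5.49%). At each density the intervals overlapped. In the 10 Mb after the first peak lay 4.60% (3.39 to 6.09%) of ERY-only regions and 6.53% (6.22 to 6.85%) of regions in all 3 lists. Regions in CMP and ERY had 11.3% (7.82 to 15.7%) there. These differences were not tested.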

How the data were processed

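MBD2-bound DNA was read as single ends of 36 bp on an Illumina instrument, per the labels' protocols. Per the file headers, the deposited lists come from table queries of a genome browser, and for every cell type they give the chromosome, start and end of each peak. The submitters' processing notes name mm9 as the build. Which aligner and peak caller the authors ran, with what threshold and control, is not given in the sources at hand.

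Peaks of the 3 lists on chromosomes 1 to 19 were merged where they overlapped or touched, and regions were classed by which lists had peaks there. Gaps are bases between the nearest edges. Local density counts regions within 100 kb of a midpoint. The regions named are the 10 widest, the 5 with the smallest and the 5 with the largest gap to an HSC or CMP peak, the 5 shared peaks with fewest shared bases, the 3 runs with most members, and the 2 chromosomes at either end per 1000 ERY regions. Tighter runs, the 1 Mb windows, the neighbours of the second widest region, chromosome 16 and the values of chromosomes 6 and 8 by density were named after their values were seen. Members and measures were chosen with earlier results of these data known. Sequence composition, gene features, gene lists and motifs were planned and not run, for want of a genome and annotation of the same build.

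Scripts ran under Python 3.11.15 with scipy 1.17.1, pandas 2.3.3, numpy 2.4.6 and matplotlib 3.10.9. The merging was tried on simulated ERY peaks set among the real HSC and CMP peaks, either well clear of them or clearly overlapping. Peaks that only touched or shared a few bases were not simulated. On the real lists bedtools 2.31.1 gave the same number of ERY-only regions, 1000.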

Additional observations from a re-analysis of the deposited data

How the results depend on the processing

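Merging peaks up to 500 bp apart, merging up to 1000 bp apart, counting ERY peaks with under 50% of their bases in HSC or CMP peaks, and using the wider 50% of the ERY list were tried, as was leaving out each chromosome. The number of ERY-only regions was 930, 866 and 1038 under the first 3 and 274 in the wider 50%. Their share of ERY regions was 3.44% with merging to 1000 bp and 2.03% in the wider 50%, against 3.74%. The median width was 860 bp in the wider 50%, by construction. The share within 5 kb of an HSC or CMP peak was 35.5% and 30.9% with merging to 500 and 1000 bp, which removes the nearest regions, and 45.3% in the wider 50%. The share within 100 kb of another ERY-only region was 6.57% in the wider 50%, with its 274 ERY-only regions, and 19.3 to 21.5% under the first 3. The other classes were not measured in the wider 50%. Without single chromosomes the number was 917 to 980, the share of ERY regions 3.65 to 3.85%, the median width 682 to 690.5 bp, the share within 5 kb 38.7 to 40.7% and the share within 100 kb 20.1 to 21.7%. Where no reason is given, the cause was not tested. No paired analysis was possible because each cell type has 1 library and no result comes from a test. CpG density, GC content, start sites and motifs were not run. The lists give no read depth, so how far the sensitivity of the CMP and HSC libraries sets the number of ERY-only regions was not tested.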

Other observations

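Chromosomes X and Y were outside the definition of the 1000 regions. On X, 7 of 559 ERY regions were ERY-only (1.25%, exact binomial interval 0.505 to 2.56%), below the 3.74% of the autosomes. CMP-only regions on X numbered 62 of 1566 CMP regions. On Y, 6 of 8 ERY regions were ERY-only, with female sex on the labels of all samples, and 1 of 3 CMP regions was CMP-only.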
